A study of Mus musculus with 62 samples.

Results

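The 31 genes described here carry pyruvate into mitochondria, turn it into acetyl-CoA, oxidise it in the TCA cycle and move reducing equivalents through the malate-aspartate shuttle. They were chosen by symbol, with no measured value in the rule, and were looked up in 4 tables of gene expression that together list 35309 symbols. All 31 were found in each table, among 29239 symbols in the chow table, 21936 in the stress table, 21039 in the AAV table and 17896 in the C2C12 table. By role they are 2 subunits of the mitochondrial pyruvate carrier, 5 genes of the pyruvate dehydrogenase (PDH) complex, 4 PDH kinases, 2 PDH phosphatases, pyruvate carboxylase, 10 TCA cycle genes, 3 genes of cytosolic aconitase and the NADP-dependent isocitrate dehydrogenases, and 4 shuttle enzymes.

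The study asked what ChREBP, a glucose-sensing transcription factor encoded by Mlxipl, does in skeletal muscle, and 62 RNA libraries are analysed here. F/F mice (ChREBP-flox) have floxed ChREBP alleles but no Cre. In ChMKO mice (ChREBP-flox;Mck-cre) Cre is driven by the muscle creatine kinase promoter, which is active in skeletal muscle and heart, so other cells of the muscle keep the gene. In the chow experiment, gastrocnemius (GC) and soleus (SOL) came from the same untreated F/F and ChMKO mice, with n = 5 for each muscle and genotype. In the stress experiment, GC of either genotype was sampled in normoxia (Norm), after 14 days of hypobaric hypoxia set to match 5500 m (Hypo), or after 3 months on a high-fructose diet (HFrD), with n = 4 in each of the 6 groups. In the AAV experiment, GC of C57BL6/J mice was sampled 14 days after injection of AAV-CON or AAV-MLXIPL, with n = 5 each. The labels give all mice an age of 8 to 10 weeks. For HFrD mice this cannot be the age at sampling, after 3 months of diet. Whether HFrD and Norm mice were of the same age at sampling is not given. In the cell experiment, C2C12, a mouse myoblast line, carried a vector control or a ChREBP-overexpression construct and was sampled on day 7 of myogenic differentiation, with n = 4 each. The study's methods call the replicates of a group independent biological ones, while the labels do not say how the C2C12 cultures were kept apart. The study selected stable C2C12 lines with puromycin and, for its qRT-PCR, counts culture wells as biological replicates. The spread between C2C12 libraries may therefore be that between wells of the same line.

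Values are FPKM, fragments scaled by transcript length and by library total, so that genes can be compared within a table. The 4 tables were normalized separately and rest on different gene models, and no level is compared between them. A fold change is the difference of mean log2(FPKM + 1) between groups, given with its standard error (SE), and it understates the change of genes with low FPKM. A gene was called where limma's two-sided test gave an adjusted p (Benjamini-Hochberg over all genes tested) under 0.05. In bulk muscle, fewer cells of a type and less RNA per cell cannot be told apart.

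Pyruvate enters mitochondria through a carrier made of Mpc1 and Mpc2. The PDH complex converts it to acetyl-CoA, PDH kinases switch the complex off by phosphorylation and PDH phosphatases switch it on again, while pyruvate carboxylase makes oxaloacetate from pyruvate. Citrate synthase starts the TCA cycle. Malate dehydrogenases and aspartate aminotransferases, each with a cytosolic and a mitochondrial form, are the enzymes of the malate-aspartate shuttle. Slow oxidative muscle such as SOL is known for a high mitochondrial content, and fast muscle such as GC for a high glycolytic capacity.

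The promoters of 3 members are shown, chosen after their values were seen, because Mdh1 and Got1 of the shuttle are among the members that rose most from GC to SOL and Pcx is the member that fell most. Each is the 250 bases before a start site, from RefSeq on GRCm38.p6, written 5′ to 3′ on the strand of the gene. Capitals mark 3 short motifs that were searched on both strands: the E-box CACGTG, which reads the same on both strands, the nuclear receptor motif AAGGTCA and the GC box GGGCGG. A GC box on the other strand reads CCGCCC. In these 3 promoters no match overlaps another.
Mdh1, chr11:21571935-21572184, minus strand: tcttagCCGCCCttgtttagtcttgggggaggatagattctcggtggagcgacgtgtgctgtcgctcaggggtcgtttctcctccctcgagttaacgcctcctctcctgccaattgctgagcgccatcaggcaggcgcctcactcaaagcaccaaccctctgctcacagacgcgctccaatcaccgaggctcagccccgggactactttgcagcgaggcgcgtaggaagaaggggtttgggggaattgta
Got1, chr19:43524606-43524855, minus strand: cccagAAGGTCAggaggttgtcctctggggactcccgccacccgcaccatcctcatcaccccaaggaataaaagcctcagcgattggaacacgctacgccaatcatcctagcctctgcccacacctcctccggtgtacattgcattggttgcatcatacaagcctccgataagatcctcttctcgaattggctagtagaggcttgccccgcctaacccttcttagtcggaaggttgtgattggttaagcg
Pcx, chr19:4510222-4510471, plus strand: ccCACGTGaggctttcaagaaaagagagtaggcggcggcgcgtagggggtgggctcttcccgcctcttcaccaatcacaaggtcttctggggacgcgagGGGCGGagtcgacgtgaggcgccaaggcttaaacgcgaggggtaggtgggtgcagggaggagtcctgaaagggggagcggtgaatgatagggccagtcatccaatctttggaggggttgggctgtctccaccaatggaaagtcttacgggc

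Of the 31 genes, 29 had a promoter in that RefSeq table, in 39 entries. CACGTG stood in 6 of the 39 entries (15.4%, from Ogdh, Pcx, Pdk2 and Pdp2), against 6.02% of all 32851 promoters of the same length. AAGGTCA stood in 1 entry, that of Got1 (2.56%), against 4.08% of all promoters. GGGCGG stood in 23 entries (59%, from 20 genes, Mdh1 and Pcx among them), against 32.7% of all promoters. A match is a description of these letters and was not tested as a binding site.

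The tissue labels were checked against marker genes. The summed FPKM of 5 genes that define skeletal muscle (Acta1, Ckm, Mb, Des and Ttn) was 31227 to 44664 in GC and 30176 to 33032 in SOL of F/F mice. In C2C12 cells it was 893 to 940 with the vector and 1021 to 1062 on overexpression. The slow-twitch markers summed to 6269 to 10219 in SOL and 3.73 to 153 in GC, and the fast-twitch markers to 17201 to 19355 and 33727 to 50904. Lists of other cell types differed in part between the muscles of F/F mice. In SOL against GC, the adipocyte list summed to 374.1 to 627 against 142 to 238, the endothelial list to 107 to 181 against 34.5 to 74.2 and the red blood cell list to 165 to 354 against 61.9 to 123. The satellite cell list, at 3.85 to 14.8 against 10.01 to 21.4, overlapped between the muscles, as did the Schwann cell, fibroblast and leukocyte lists. In ChMKO mice the adipocyte, endothelial and red blood cell lists were also higher in SOL without overlap. There the Schwann cell list was higher (34.3 to 55.0 against 13.5 to 33.8) and the satellite cell list lower (5.72 to 12 against 14.4 to 27.0) in SOL. The fibroblast and leukocyte lists overlapped in ChMKO mice too. No marker of these lists was at 0 in all libraries of a muscle group. The part of these lists in the differences between muscles was not tested. Mlxipl averaged 24.9 FPKM in F/F and 15.7 in ChMKO mice in chow GC (-0.63, SE 0.13, adjusted p = 0.413 by limma) and 53.4 and 38.4 in SOL (-0.47, SE 0.14, adjusted p = 0.384). It was called lower in ChMKO mice in Norm (log2 fold change -1.16), Hypo (-1.27) and HFrD (-0.92), and rose from 11.3 to 83.5 FPKM with AAV-MLXIPL and to 13.4 FPKM in C2C12 cells, where it was at 0 in 3 of 4 vector libraries. These values cover the whole gene, and whether the deleted exons are read was not checked here.

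Libraries of the stress experiment stood apart in a way that no label names. On the first principal component of 10687 genes that are no members (61.6% of the variance), the 24 libraries fell into 2 sets of 12, at scores of -39.4 to -16.3 and 18.8 to 27.5. The first set held all Norm and Hypo libraries of ChMKO mice, N_WTc368 and N_WTc369 of Norm F/F, and H_WTc341 and H_WTc348 of Hypo F/F. The second held all 8 HFrD libraries, N_WTc397 and N_WTc401 of Norm F/F, and H_WTc360 and H_WTc361 of Hypo F/F. Muscle-defining genes summed to 25594 to 35525 FPKM in the first and 16989 to 21893 in the second set, 13 glycolysis enzymes to 11985 to 16442 and 7778 to 10547, and the endothelial list to 61.9 to 104 and 43.5 to 53.2. Reads on genes, recovered from the deposited values, were 14471541 to 18579214 and 17227122 to 23459142. The cause of the split was not tested. HFrD against Norm in ChMKO mice lies wholly between the sets, so diet and set cannot be told apart there. Results of this experiment are given without and with a term for the set and, where it changes a call, within a set, and these additions were chosen after the data were seen.

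The first comparison asked how the genes differ between SOL and GC on chow. Its fits treated SOL and GC libraries as unpaired, although they came from the same mice. Fits with the mouse as a block are given where they change a call. In those, the match of mouse 69 between muscles is uncertain, as another label of its SOL library carries a different number. In F/F mice 18 of the 31 genes rose in SOL (58.1%) and 3 fell (9.68%), while of all genes tested 37.9% rose and 12.5% fell. In ChMKO mice 23 rose (74.2%) and 2 fell (6.45%), against 41% and 16.9% of all genes. The median log2 fold change of the members was 0.40 in F/F and 0.54 in ChMKO mice, and that of all genes 0.18 and 0.15. Rescaling the libraries by the median of ratios moved the median of all genes to -0.01 and 0.00. Then 8 members rose and 3 fell in F/F mice, against 20.7% and 23.6% of all genes, and 21 rose and 3 fell in ChMKO mice, against 25.9% and 28.1%. After rescaling, the share of members that rose in F/F mice thus lay near that of all genes. Of the 21 calls in F/F and 25 in ChMKO mice without rescaling, 19 were shared, all in the same direction, which is 90.5% of the F/F and 76% of the ChMKO calls.

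**Figure D1:**
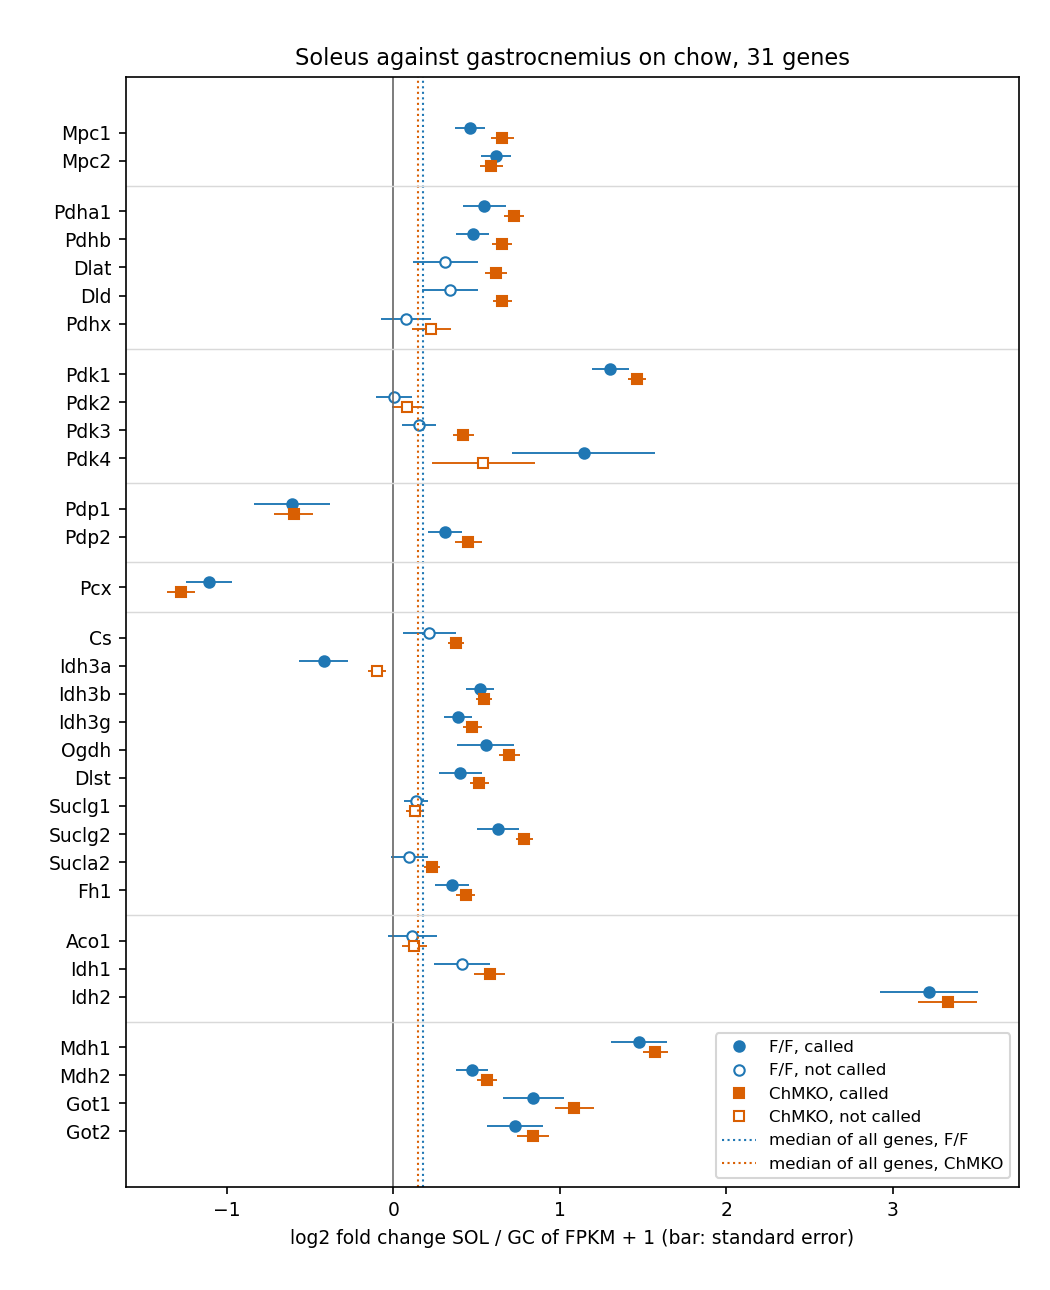
Log2 fold change of SOL against GC on chow (x axis, from FPKM + 1) for each of the 31 genes (y axis, grouped by role) in F/F (circles) and ChMKO mice (squares), with standard errors as bars, n = 5 libraries per group, filled where called, and dotted lines at the median of all genes tested. Idh2 lies farthest right at 3.22 and 3.33 and Pcx farthest left at -1.11 and -1.28.

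Idh2, the mitochondrial NADP-dependent isocitrate dehydrogenase, had the largest fold change of all members in both genotypes. Idh2 (gene18446, chr7:80094846-80115840 on GRCm38, minus strand) was at 41.7, 131, 40.2, 57.8 and 38.7 FPKM in GC of F/F mice 57, 58, 69, 70 and 71, and at 423, 619, 562, 481 and 527 in SOL of the same mice. For ChMKO mice 59, 60, 61, 72 and 74 the values were 43.0, 35.4, 49.5, 80.9 and 44.9 in GC and 589, 496, 442, 472 and 505 in SOL. The lowest SOL library lay above the highest GC library in both genotypes, and GC of F/F mouse 58 and of ChMKO mouse 72 were the high ones of their groups. The log2 fold change was 3.22, SE 0.29, adjusted p = 1.27e-05 in F/F and 3.33, SE 0.18, adjusted p = 5.62e-08 in ChMKO mice. Its cytosolic counterpart Idh1 averaged 5.58 ± 0.777 FPKM (SD, n = 5) in GC and 7.92 ± 1.99 in SOL of F/F mice and was not called there (0.41, adjusted p = 0.06), but rose by 0.58 in ChMKO mice, and with the mouse as a block it was called in F/F mice too (adjusted p = 0.0443). Idh2 made up 90.3% ± 3.13 of the summed FPKM of both genes in GC and 98.5% ± 0.432 in SOL of F/F mice. Aco1, cytosolic aconitase, was called in neither genotype (0.11 and 0.13).

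All 4 shuttle enzymes rose in SOL in both genotypes. Mdh1 (gene26859, chr11:21556692-21571934, minus strand), the cytosolic malate dehydrogenase whose promoter is printed above, was at 173, 239.8, 123, 180.2 and 149.6 FPKM in GC and 436, 591, 485, 461 and 405 in SOL of F/F mice. Its ChMKO values were 169, 151, 174, 193 and 146 in GC and 484, 465, 514, 499.8 and 514 in SOL. No SOL library overlapped with GC, and the fold changes were 1.48, SE 0.17, adjusted p = 4.8e-05 and 1.57, SE 0.08, adjusted p = 2.84e-08. The mitochondrial form Mdh2 had the highest mean FPKM of all members in both muscles of F/F mice (495 ± 36.7 in GC and 688 ± 61.5 in SOL) and rose by 0.47 in F/F and 0.56 in ChMKO mice, though in F/F mice not after rescaling. Mdh1 made up 25.7% ± 4.63 of the summed FPKM of both forms in GC and 40.8% ± 2.08 in SOL of F/F mice.

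Got1 (gene42850, chr19:43499752-43524605, minus strand), the cytosolic aspartate aminotransferase, was at 150.4, 229.8, 118, 185 and 153 FPKM in GC and 314, 351, 310.3, 298 and 211 in SOL of F/F mice. The SOL library of mouse 71 lay below the GC library of mouse 58. Without such overlap, the ChMKO values were 155, 132, 200.1, 206 and 147 in GC and 372, 371, 362, 342 and 319.7 in SOL. Got1 rose by 0.84 (SE 0.18, adjusted p = 0.00292) in F/F and 1.09 (SE 0.12, adjusted p = 1.34e-05) in ChMKO mice, and the mitochondrial form Got2 by 0.73 and 0.84. The share of Got1 in both forms was 45.8% ± 1.99 in GC and 47.7% ± 1.21 in SOL of F/F mice.

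The PDH kinases differed from each other. Pdk1 (gene3832, chr2:71873213-71903858, plus strand), a kinase known as a target of hypoxia signalling, was at 9.24, 12.1, 7.65, 9.98 and 8.49 FPKM in GC and 26.0, 26.4, 22.7, 26.8 and 21.7 in SOL of F/F mice, and at 9.85, 8.68, 8.74, 9.68 and 8.41 and 25.4, 27.2, 27.3, 26.6 and 27.1 in ChMKO mice. The muscles did not overlap, and Pdk1 had the smallest adjusted p of all members in both genotypes (1.3031, SE 0.11, adjusted p = 9.06e-06 in F/F and 1.46, SE 0.05, adjusted p = 5.84e-09 in ChMKO mice). Pdk4 (gene13675, chr6:5483351-5496278, minus strand), the kinase known to be induced by fasting, spread widely, with 93.3, 83.5, 184, 251 and 193 FPKM in GC and 208, 166, 709, 528 and 288 in SOL of F/F mice. Its ChMKO values were 141, 114, 229.9, 145 and 243 in GC and 116, 205, 350.1, 308 and 328 in SOL, and the muscles overlapped in both genotypes. Pdk4 was called in F/F mice (1.14, SE 0.43, adjusted p = 0.0445) and not in ChMKO mice (0.54, SE 0.31, adjusted p = 0.156), and the difference between these effects was -0.60 (SE 0.54, adjusted p = 0.878). The F/F call ended without GC 57, 58, 69 or 71 or SOL 69, 70 or 71 (adjusted p 0.0535 to 0.102), without both mice 69 and 71 (1.07, adjusted p = 0.157) and on rescaling (0.89, adjusted p = 0.114). With the mouse as a block, Pdk4 was called in F/F (adjusted p = 0.00178) and in ChMKO mice (adjusted p = 0.0356).

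Pdk2, the kinase with the highest mean FPKM in GC, was at 236 ± 13.3 in GC and 238 ± 32.6 in SOL of F/F mice and was called in neither genotype (0.00 and 0.08). Pdk3 was low in both muscles (0.457 and 0.630 FPKM in F/F mice) and was called in ChMKO mice (0.42, adjusted p = 0.000168). On rescaling, Pdk3 no longer passed the filter on low values in that comparison. Pdk4 made up 38.0% ± 11.2 of the summed kinase FPKM in GC and 55.2% ± 15.2 in SOL of F/F mice, and Pdk1 2.42% ± 0.759 and 4.25% ± 1.44. The mean of Pdk4 was below that of Pdk2 in GC (161 FPKM) and above it in SOL (379.7 FPKM), with a wide spread between mice.

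The phosphatases moved in opposite directions. Pdp1 (gene8552, chr4:11958183-11966450, minus strand), the calcium-activated form, was at 14.6, 13.5, 9.48, 16.1 and 14.8 FPKM in GC and 10.1, 10.3, 8.86, 11.3 and 4.06 in SOL of F/F mice. ChMKO libraries held 13.9, 11.5, 13.1, 8.98 and 11 in GC and 9.18, 7.66, 7.21, 6.55 and 6.18 in SOL. The lowest GC library overlapped with SOL in each genotype. Pdp1 fell by 0.61 (SE 0.23, adjusted p = 0.0442) in F/F and 0.60 (SE 0.12, adjusted p = 0.00124) in ChMKO mice. The F/F call ended without GC 57, 58, 70 or 71 or SOL 69 (adjusted p 0.0685 to 0.0941), and without SOL F/F 71 the value was -0.38, still called. Pdp2 rose by 0.31 and 0.45 from low levels (0.702 FPKM in GC and 1.13 in SOL of F/F mice), and its F/F call ended without GC 69 or SOL 58, 69 or 70 (adjusted p 0.0521 to 0.064), on rescaling and with the mouse as a block (adjusted p = 0.0507). Pdp1 made up 95.1% ± 0.299 of the summed FPKM of both phosphatases in GC and 88.4% ± 2.30 in SOL of F/F mice.

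Pyruvate carboxylase was higher in GC. Pcx (gene41949, chr19:4510472-4621752, plus strand) was at 30.1, 20.51, 23.4, 22.2 and 31.5 FPKM in GC and 12.8, 12.1, 12.1, 10.8 and 8.52 in SOL of F/F mice, and at 26.1, 32.3, 31.9, 34.1 and 31.6 and 13.7, 12.2, 12.7, 12.7 and 10.2 in ChMKO mice. Every GC library lay above every SOL library of its genotype. Pcx fell from GC to SOL by 1.11 (SE 0.14, adjusted p = 9.53e-05) in F/F and 1.28 (SE 0.09, adjusted p = 2.88e-07) in ChMKO mice.

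Both carrier subunits were called higher in SOL in both genotypes, as were 2 of the 5 genes of the PDH complex in F/F and 4 in ChMKO mice. Mpc1 (gene38757, chr17:8283813-8297661, plus strand) was at 26.2, 28.2, 23.8, 25.8 and 28.9 FPKM in GC and 34.7, 41.7, 33.6, 33.6 and 41.5 in SOL of F/F mice, and at 26.0, 25.7, 25.6, 23.7 and 20.9 and 36.9, 35.8, 39.3, 41.1 and 41.2 in ChMKO mice. No library overlapped between the muscles. It rose by 0.46 (SE 0.09, adjusted p = 0.00163) in F/F and 0.65 (SE 0.07, adjusted p = 1.14e-05) in ChMKO mice, and the F/F call ended on rescaling (0.21, adjusted p = 0.0874). Its partner Mpc2 rose by 0.62 and 0.59. Pdha1 and Pdhb, subunits of the decarboxylase component, rose by 0.55 and 0.48 in F/F and 0.73 and 0.65 in ChMKO mice, and both F/F calls ended on rescaling. Dlat, the acetyltransferase, and Dld, the dihydrolipoamide dehydrogenase, were called in ChMKO mice (0.62 and 0.65) and not in F/F mice (0.31 and 0.34). Pdhx, which holds Dld in the complex, was called in neither (0.07 and 0.23).

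Of the 10 TCA cycle genes, 6 rose and 1 fell in F/F mice and 8 rose in ChMKO mice. Cs (gene26441, chr10:128337832-128362479, plus strand), citrate synthase, was at 263, 293.5, 213, 268 and 252 FPKM in GC and 344.8, 349, 330.1, 300.4 and 198 in SOL of F/F mice. SOL of mouse 71 lay below all GC libraries and the other 4 SOL libraries above them, and Cs was not called (0.22, SE 0.16, adjusted p = 0.275). ChMKO libraries held 258, 257, 272, 283 and 251 in GC and 354, 345.3, 335, 342 and 337 in SOL, without overlap, and Cs rose by 0.38 (SE 0.05, adjusted p = 5.43e-05). Idh3a, the catalytic subunit of the NAD-dependent isocitrate dehydrogenase, was at 239.9, 265, 199, 253 and 237 in GC and 208, 205, 190.3, 178 and 122 in SOL of F/F mice, where GC of mouse 69 overlapped with SOL. It fell by 0.42 (SE 0.15, adjusted p = 0.0339), a call that ended without GC 57, 58, 70 or 71 or SOL 70 (adjusted p 0.0592 to 0.0727). Its ChMKO values were 243, 236, 232, 228 and 220.4 in GC and 203, 208, 241, 215 and 216 in SOL and it was not called there (-0.10, adjusted p = 0.152), while after rescaling it was (-0.30, adjusted p = 0.0029). The other subunits of that enzyme, Idh3b and Idh3g, rose by 0.52 and 0.39 in F/F and 0.54 and 0.47 in ChMKO mice.

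Succinyl-CoA ligase can carry an ATP-forming or a GTP-forming beta subunit. The GTP-forming Suclg2 rose by 0.63 in F/F and 0.79 in ChMKO mice. The ATP-forming Sucla2 was at 168, 180, 147, 157 and 151 FPKM in GC and 189.9, 187, 179, 173 and 133 in SOL of F/F mice and was not called (0.09, adjusted p = 0.497). In ChMKO mice Sucla2 was at 164, 159, 167, 159.8 and 154 in GC and 189, 190.1, 199.9, 188 and 178 in SOL, without overlap, and rose by 0.23 (adjusted p = 0.00144), which rescaling took to 0.03 (adjusted p = 0.697). Suclg2 made up 7.43% ± 0.446 of both beta subunits in GC and 10.7% ± 0.723 in SOL of F/F mice. Ogdh and Dlst of the 2-oxoglutarate dehydrogenase complex rose by 0.55 and 0.40 in F/F and 0.70 and 0.52 in ChMKO mice, and the F/F call of Dlst ended without SOL 58 or 69 (adjusted p 0.0523 to 0.0549). Fh1, fumarase, rose by 0.35 and 0.43, and Suclg1, the shared alpha subunit of succinyl-CoA ligase, was called in neither genotype (0.14 and 0.13). The F/F calls of Ogdh, Dlst, Idh3g and Fh1 ended on rescaling.

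SOL of F/F mouse 71 was the lowest of its group in, among others, Cs, Idh3a, Sucla2, Got1, Mdh1, Pdp1, Pdk1 and Pcx, and without it 25 members were called in F/F mice instead of 21. Without SOL of mouse 69 the count was 17, and without both mice, chosen after the data were seen, it was 21.

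**Figure D2:**
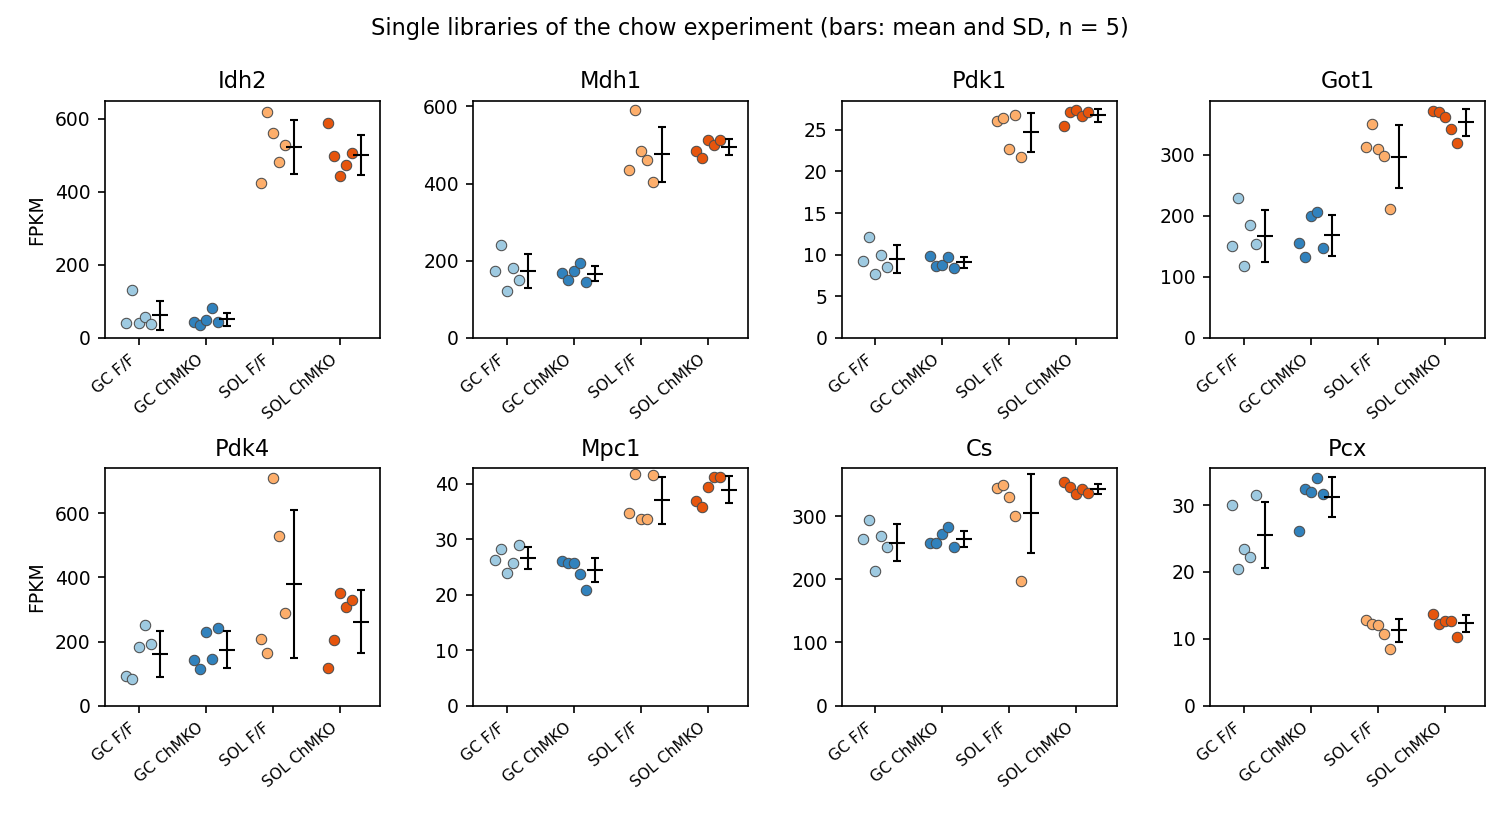
FPKM (y axis, linear from 0) of 8 members in the single libraries of GC and SOL from F/F and ChMKO mice on chow (x axis), 1 point per library, with the mean and SD of each group (n = 5). Idh2, Mdh1, Pdk1, Mpc1 and Pcx do not overlap between the muscles, Pdk4 does, and the low SOL F/F point of Cs at 198 is mouse 71.

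The order of levels changed between the muscles of F/F mice. Mdh2 came first in both, above Cs at 258 FPKM in GC and above Idh2 at 522 in SOL, and its libraries did not overlap with those of the next gene. Idh2 stood at rank 20 in GC and rank 2 in SOL. In SOL the libraries of Idh2, Mdh1 (476), Pdk4 (379.7) and Pdha1 (327) overlapped with those of the next gene in the order, so that neighbours there did not differ beyond their spread. Pdp2 and Pdk3 were the lowest in both muscles. The coefficient of variation (CV) between libraries had a median over members of 4.81% to 20.4% in the 12 muscle groups of all experiments. Pdk4 had the highest CV of all members in 6 of these groups and ranged from 13.2% in HFrD F/F to 72.1% in AAV-CON, and Idh2 had the highest in 3, with 63.8% in GC of F/F mice on chow.

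Other genes around the pathway were counted in the same comparison of muscles. Of 33 tested genes of a further list of transporters, succinate dehydrogenase subunits and enzymes of lactate, malate, glutamate and glycerol phosphate, 15 rose and 6 fell in F/F and 18 rose and 7 fell in ChMKO mice, to be read beside the shares of all genes given above. After rescaling 11 rose and 8 fell in F/F and 13 rose and 9 fell in ChMKO mice. Ldhb, the lactate dehydrogenase of oxidative tissue, rose by 3.35 and 3.44, and Ldha, the form of fast muscle, fell by 1.58 and 1.62. The lactate transporter Slc16a1 rose by 1.31 and 1.52, and Slc16a3 fell by 2.64 and 2.81. Gpd1 and Gpd2 of the glycerol phosphate shuttle fell by 2.92 and 2.85 in F/F and 3.10 and 2.94 in ChMKO mice. Slc25a11, the oxoglutarate carrier of the malate-aspartate shuttle, rose by 0.53 and 0.57, while the aspartate carrier Slc25a12 was called in neither (-0.04 and 0.04). Fatty acid oxidation, the other large source of acetyl-CoA, rose in all 17 listed genes in both genotypes (median 1.12 and 1.3020), 62 and 64 of 70 tested respiratory chain genes rose (36 and 60 after rescaling), and 9 of 13 glycolysis enzymes fell in each genotype.

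Loss of ChREBP was then compared within each muscle on chow. None of 30 tested members was called in GC and none of 31 in SOL by limma at the adjusted p, beside 0.0236% and 0.0225% of all genes. At an unadjusted p under 0.05 there was 1 member in GC (Pcx 0.29) beside 4.63% of all genes, and 3 in SOL (Pdha1 0.25, Dlat 0.34 and Got1 0.27) beside 9.74%. Fold changes lay between -0.21 (Pdp1) and 0.29 (Pcx) in GC and between -0.42 (Pdk4) and 0.34 (Dlat) in SOL, with a median SE of 0.09 and 0.11. In GC and SOL, Mpc1 differed by -0.12 and 0.07, Cs by 0.04 and 0.20, and Pdk4 by 0.18 and -0.42, none of them called. Single libraries set several of these values. Without SOL F/F 71 the SOL differences of Cs, Dlat and Got1 were 0.05, 0.18 and 0.15, and that of Pdp1 went from -0.20 to -0.42. Pdk4 was at -0.15 in SOL without SOL F/F 69, and its difference in GC turned to -0.02 without GC F/F 58. Without both mice 69 and 71, Pdp1 in SOL was at -0.48 (adjusted p = 0.264) and no member was called. The effect in SOL minus that in GC, with the mouse as a random block, called no member beside 0.00759% of all genes, and 1 member (Pdk3 0.26) was under an unadjusted p of 0.05 beside 5.99%.

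In the stress experiment no member was called between ChMKO and F/F mice by limma in Norm, Hypo or HFrD, beside 0.00922%, 0.00941% and 0.019% of all genes. Voom on whole reads, a related fit that weights by depth, also called none. At an unadjusted p under 0.05 limma gave 3 members in Norm (Mpc1 -0.45, Pcx 0.31 and Pdp1 -0.42) beside 11.1% of all genes, 0 in Hypo beside 5.27%, and 9 of 30 in HFrD beside 7.36%. The median fold change over members was 0.12 in Norm against 0.05 for all genes, 0.15 in Hypo against 0.08, and -0.08 in HFrD, where all 8 libraries lie in the second set, against -0.01. It was thus above 0 in Norm and Hypo and below 0 in HFrD. In Norm and Hypo all ChMKO libraries lie in the first set, and those of F/F mice in both. Within the first set (2 F/F and 4 ChMKO libraries per condition) no member was called. In Norm all members but Pdha1, Pdhx, Pdp2, Pcx and Suclg1 were then below 0, and Got2 went from 0.35 to -0.01. Most members stayed above 0 in Hypo, where Got1 went from 0.48 to 0.11. Got1 in HFrD was at 137, 129, 124 and 139 FPKM in F/F and 121, 117, 116 and 98.9 in ChMKO mice (-0.22, SE 0.07, adjusted p = 0.585), and Mpc1 at 5.14, 4.65, 4.28 and 4.32 and 3.90, 4.15, 3.79 and 3.40 (-0.22, SE 0.07, adjusted p = 0.585). Neither gene overlapped between the genotypes, and neither was called. In Norm, Mpc1 was at 3.17 and 3.11 in the F/F libraries of the first set, 5.63 and 4.96 in those of the second and 2.90, 2.74, 2.86 and 2.42 in ChMKO mice, all of the first set. With the set as a term limma called no member in any of the 3 conditions, and the Norm difference of Mpc1 was -0.19 (SE 0.09, adjusted p = 0.999).

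Hypoxia was compared with normoxia in each genotype, against the same Norm libraries that serve the diet. In F/F mice limma and voom called no member, and limma no gene at all (0%), with 1 member (Idh1 -0.34) under an unadjusted p of 0.05 beside 3.83% of all genes. With the set as a term no member was called in F/F mice and 5 were under an unadjusted p of 0.05 (Mpc1 -0.20, Mpc2 -0.15, Pdk2 0.17, Pcx -0.21 and Idh1 -0.34), beside 16.4% of all genes in that fit. In ChMKO mice, whose Norm and Hypo libraries all lie in the first set, limma and voom called no member, beside 0.89% of all genes by limma. Unadjusted p under 0.05 was found for 7 members beside 15.1%: Idh2 (0.81), Got1 (0.54), Pdk2 (0.28), Pdk1 (0.23), Suclg2 (0.20), Pdha1 (-0.24) and Pcx (-0.42). Got1 was at 175, 176, 139 and 186 FPKM in Norm and 205, 215, 315 and 261 in Hypo of ChMKO mice, and Pcx at 24.8, 21.8, 21.9 and 25.5 and 15.8, 18.2, 19.4 and 15.6. Neither gene overlapped between the conditions. The summed slow-twitch markers were at 6.31 to 125 FPKM in Norm and 70.1 to 565 in Hypo of ChMKO mice, and at 15.9 to 124 and 92.3 to 517 in F/F mice. The red blood cell markers were at 217 to 407 and 316 to 839.8 in ChMKO mice, and at 103 to 387 and 156 to 645 in F/F mice. Both lists had higher medians in Hypo with overlap between the conditions, and their part in the members' differences was not tested. With the set as a term and all 6 groups in 1 fit, Got1 (adjusted p = 0.0388) and Pdk2 (adjusted p = 0.0152) were called higher and Pcx (adjusted p = 0.0158) lower, beside 6.75% of all genes, and without that term Pcx alone was called in such a fit (adjusted p = 0.0349).

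F/F mice had Got1 at 161, 241, 105 and 117 FPKM in Norm and 298.9, 172, 149.9 and 123 in Hypo, where the first pair of values of each group comes from the first set and the second pair from the second. Pcx was at 16.1, 21.6, 20.02 and 17.6 in Norm and 15.1, 18.9, 15.1 and 15.3 in Hypo. Both genes overlapped between the conditions. The hypoxia effect in ChMKO minus that in F/F mice called no member by limma or voom and no gene by limma (0%), with 0 members under an unadjusted p of 0.05 beside 1.23% of all genes. Pdk4 differed by -0.07 (SE 0.19) in F/F and 0.47 (SE 0.59) in ChMKO mice, where it turned to -0.15 without the Norm library N_KO_370, and Cs by -0.02 (SE 0.20) and 0.04 (SE 0.10).

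**Figure D3:**
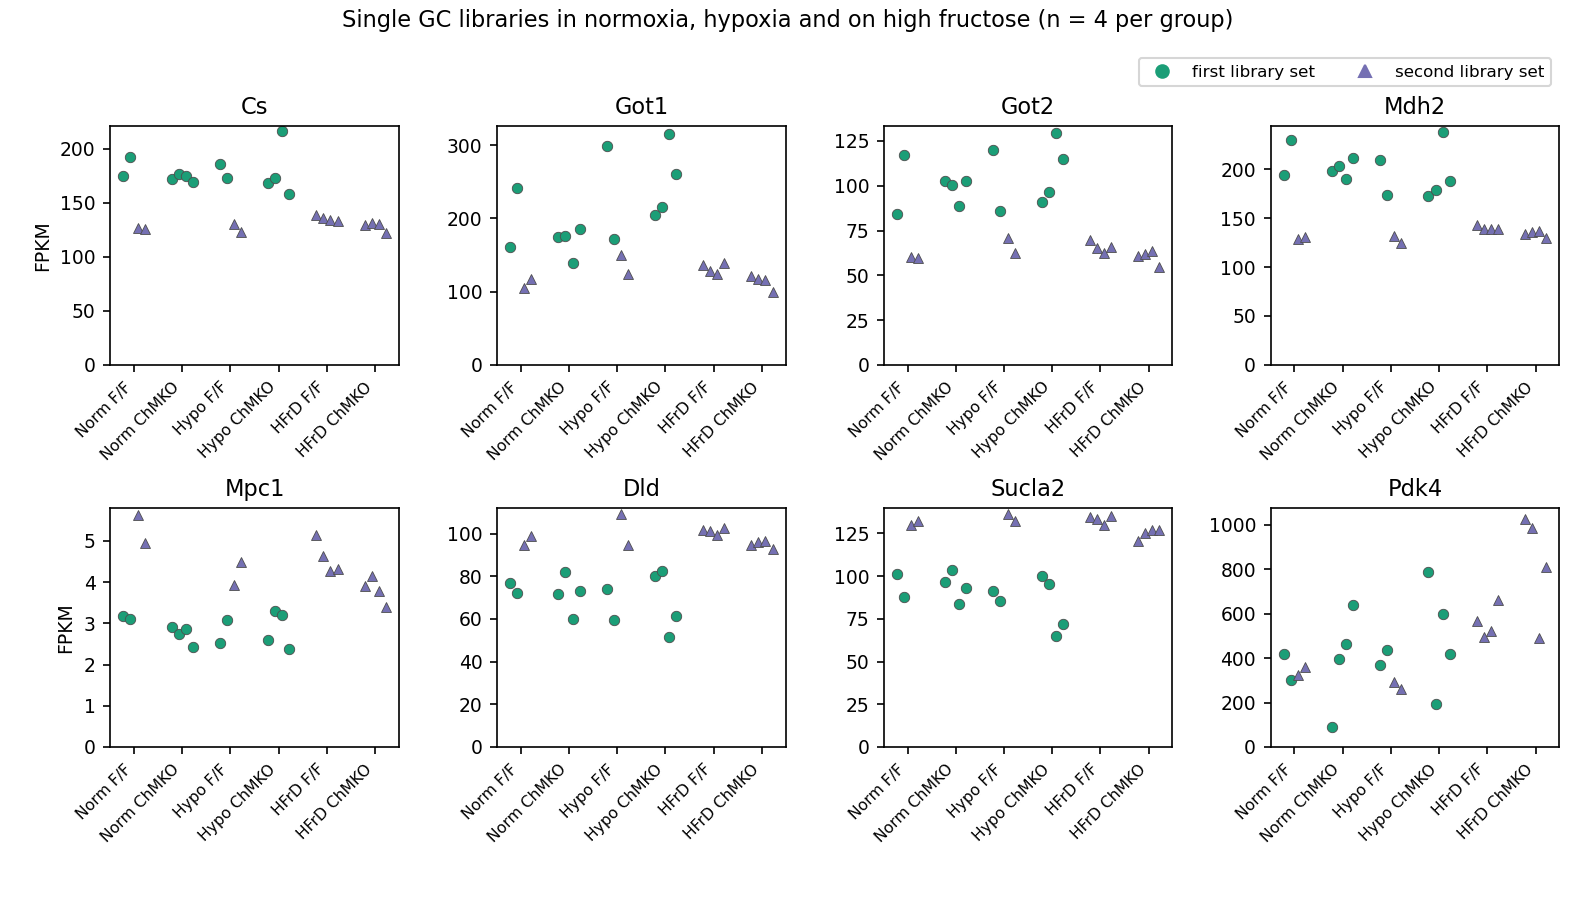
FPKM (y axis, linear from 0) of 8 members in the single GC libraries of the 6 groups of the stress experiment (x axis, n = 4 per group), with circles for the first and triangles for the second library set. In Norm F/F and Hypo F/F, the groups that hold both sets, Cs, Got2 and Mdh2 are higher and Dld and Sucla2 lower in the circles than in the triangles.

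The high-fructose diet was compared with the Norm group in each genotype, and any difference in age between these groups cannot be told apart from diet. In ChMKO mice 4 of 31 members were called higher (12.9%) and 20 lower (64.5%) in HFrD, while of all genes 19.4% were higher and 44.6% lower, and the median was -0.29 for the members and -0.17 for all genes. After rescaling 5 were higher and 13 lower, beside 27.2% and 26.6% of all genes. These libraries are split by set as by diet. The size of the set term comes only from the Norm and Hypo libraries of F/F mice, the groups that hold both sets. The sets were drawn from the expression of other genes in these same libraries. A fit with that term therefore cannot tell set from diet in ChMKO mice. With the set as a term limma called no member, beside 0.336% of all genes. Under an unadjusted p of 0.05 were 5 members beside 12.9% of all genes, and the median of the members was -0.02. In ChMKO mice the muscle-defining, red blood cell, endothelial, leukocyte and satellite cell lists were lower in HFrD without overlap. So was the fibroblast and tendon list (265 to 565 FPKM in Norm and 137 to 166 in HFrD). The slow-twitch, fast-twitch, adipocyte and Schwann cell lists overlapped, and the part of these lists in the members' differences was not tested.

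All 4 shuttle enzymes and 8 of the 10 TCA cycle genes were called lower in the HFrD libraries of ChMKO mice, and 1 cycle gene, Sucla2, higher. Got2 was at 103, 100.4, 88.8 and 103 FPKM in Norm (N_KO_370, N_KO_374, N_KO_375 and N_KO_380) and 60.9, 61.9, 63.4 and 54.4 in HFrD (-0.70, SE 0.07, adjusted p = 2.6e-05). F/F mice had Got2 at 84.3 and 117 in the first-set and 60.2 and 59.9 in the second-set Norm libraries, and at 69.6, 65.4, 62.3 and 65.9 in HFrD. The HFrD values of F/F mice thus lay nearer to second-set than to first-set Norm libraries. With the set term the ChMKO difference was -0.04 (SE 0.16). Mdh2 was at 199, 204, 190.2 and 212 in Norm and 134, 136, 136 and 130.1 in HFrD of ChMKO mice (-0.58, SE 0.05, adjusted p = 1.02e-05), and at 194, 230.3, 128 and 131 in Norm and 143, 139, 139 and 139 in HFrD of F/F mice. Its ChMKO difference with the set term was 0.05 (SE 0.12), which reverses its direction without a call.

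Citrate synthase and the cytosolic aminotransferase followed the same order. Cs was at 172, 176, 175 and 169 FPKM in Norm and 129.7, 132, 129.9 and 122 in HFrD of ChMKO mice (-0.43, SE 0.04, adjusted p = 4e-05), and at 175, 192, 127 and 126 in Norm and 139, 136, 134 and 133 in HFrD of F/F mice. Got1, at the Norm values given above, was at 121, 117, 116 and 98.9 in HFrD of ChMKO mice (-0.57, SE 0.10, adjusted p = 0.000847). Neither gene overlapped between Norm and HFrD of ChMKO mice, and the set term gave 0.09 (SE 0.10) for Cs and 0.21 (SE 0.22) for Got1. Of the PDH complex 3 of 5 genes were called lower and 1 higher without the set term, and no member of any role was called with it.

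Of the 4 members called higher, Dld, Sucla2 and Mpc1 also divided by set within Norm F/F, and Pdk1 did not. Dld was at 71.7, 82.0, 60.2 and 73.0 FPKM in Norm and 94.5, 96.0, 96.5 and 92.7 in HFrD of ChMKO mice (0.41, SE 0.08, adjusted p = 0.00213), and at 76.7 and 72.1 in the first-set and 94.5 and 99.1 in the second-set Norm libraries of F/F mice. Sucla2 was at 96.3, 104, 83.5 and 92.9 in Norm and 120.3, 125, 127 and 127 in HFrD of ChMKO mice (0.41, SE 0.07, adjusted p = 0.000569), and at 101 and 87.8 and 130.1 and 132 in the first-set and second-set Norm libraries of F/F mice. Mpc1 was higher by 0.37 (SE 0.07, adjusted p = 0.00132), from the Norm and HFrD values given above. None of these genes overlapped between the ChMKO groups, and the set term gave -0.08 for Dld, -0.13 for Sucla2 and -0.16 for Mpc1. Pdk1 was at 10.1 and 10.4 in the first-set and 9.87 and 11.3 in the second-set Norm libraries of F/F mice. Its ChMKO values were 9.43, 10.2, 9.35 and 8.93 in Norm and 11.5, 11.3, 10.4 and 10.2 in HFrD, and it was called at 0.17 (adjusted p = 0.0268), which ended without KO_C291 or KO_C293 or N_KO_375 or N_KO_380 (adjusted p 0.0553 to 0.0769).

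Pcx and Pdk4 had differences of similar size with and without the set term. Pcx was at 14.5, 13.2, 15.0 and 15.5 FPKM in HFrD of ChMKO mice, below all the Norm values given above (-0.65, SE 0.07, adjusted p = 5.78e-05), and the set term gave -0.59 (SE 0.14, adjusted p = 0.0892). In HFrD F/F it was at 15.6, 12.1, 15.2 and 15.4, also below all Norm values of F/F mice (-0.34, SE 0.12, adjusted p = 0.171). Pdk4 was at 88.6, 396.6, 464 and 640 in Norm and 1027, 986, 489 and 811 in HFrD of ChMKO mice, with overlap (1.31, SE 0.55, adjusted p = 0.0591), and the set term gave 1.61 (SE 0.63, adjusted p = 0.255). The Norm library N_KO_370 was the lowest of all 24, and without it the difference was smaller and called (0.70, SE 0.26, adjusted p = 0.0466). F/F mice had Pdk4 at 420.4, 303, 324 and 360.3 in Norm and 565, 494, 522 and 663 in HFrD, without overlap (0.67, SE 0.13, adjusted p = 0.145). Within the second set, with 2 Norm and 4 HFrD libraries of F/F mice, Pdk4 was called (0.70, SE 0.11, adjusted p = 0.0445), beside 0.934% of all genes. Marker lists also differed between these F/F groups: the summed slow-twitch markers were at 15.9 to 124 FPKM in Norm and 131 to 170.1 in HFrD, and the red blood cell markers at 103 to 387 and 76.2 to 99.1. The slow-twitch list was higher in HFrD without overlap, while the red blood cell, muscle defining, fibroblast and tendon, and macrophage and leukocyte lists were lower without overlap, and their part in the Pdk4 and Pcx differences was not tested.

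Over all F/F libraries limma and voom called no member with diet, and limma no gene at all (0%). Under an unadjusted p of 0.05 were 4 members (Pdk4, Pdk1 at 0.18, Pcx, and Idh1 at -0.58) beside 23.6% of all genes. With all groups in 1 fit and no set term Idh1 was called (-0.58, adjusted p = 0.0268). Within the second set Idh2 differed by 0.89 (SE 0.16, adjusted p = 0.0506), Idh1 by -0.51 (adjusted p = 0.0736) and Pdp1 by -0.49 (adjusted p = 0.0888), short of a call. Pdk4 made up 70.6% ± 4.22 of the summed kinase FPKM in Norm and 81.8% ± 2.31 in HFrD of F/F mice (SD, n = 4), and 65.5% ± 20.1 and 86.5% ± 3.87 in ChMKO mice.

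The diet effect in ChMKO minus that in F/F mice called no member by limma or voom and no gene by limma (0%), with 3 members under an unadjusted p of 0.05 (Got2 -0.48, Suclg1 -0.35 and Pcx -0.31) beside 10.3% of all genes. Without the Norm F/F library N_WTc369 alone, 7 of 30 members were called, all more negative in ChMKO mice, where 4.24% of all genes were called more negative and 5.95% more positive: Got2 (-0.67), Got1 (-0.64), Mdh1 (-0.61), Dlst (-0.53), Mdh2 (-0.50), Suclg1 (-0.45) and Ogdh (-0.34). Norm F/F then keeps 1 library of the first set and 2 of the second, while Norm ChMKO has 4 of the first, and with the set as a term over all libraries no member was called.

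**Figure D4:**
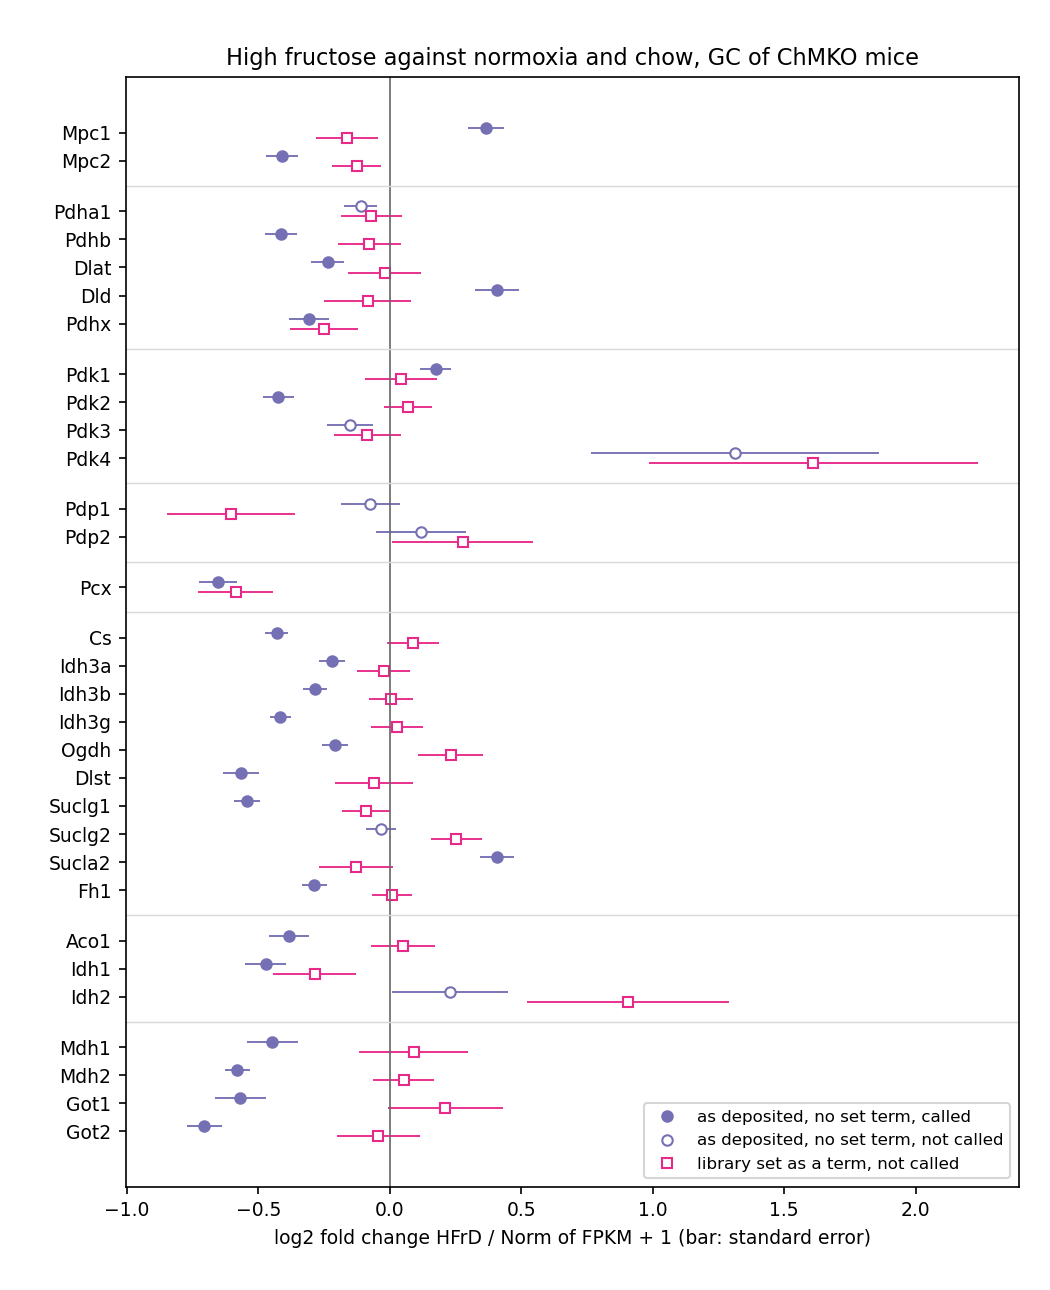
Log2 fold change of HFrD against Norm in GC of ChMKO mice (x axis, from FPKM + 1) for each of the 31 genes (y axis, grouped by role), without (circles, n = 4 per group) and with the library set as a term in a fit of all 24 libraries (squares), with standard errors as bars, filled where called. The circles reach from -0.70 for Got2 to 1.31 for Pdk4 and 24 of them are called, while none of the squares is.

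Other genes of the pathway were mostly lower in the same comparison. In HFrD against Norm of ChMKO mice 2 of 32 tested genes of the further list were called higher and 20 lower, 60 of 69 respiratory chain genes were lower and 11 of 13 glycolysis enzymes were lower, beside 19.4% higher and 44.6% lower of all genes. After rescaling by the median of ratios 4 genes of the further list were called higher and 16 lower, and 47 respiratory chain genes and 10 glycolysis enzymes were lower, beside 27.2% higher and 26.6% lower of all genes. Sdhb and Sdhc of succinate dehydrogenase were at -0.48 and -0.54, the carrier Slc25a11 at -0.65 and Ldha at -0.76. With the set as a term none of these lists held a called gene by limma.

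Overexpression of ChREBP in GC by AAV gave no call among the members. Limma called none of 31 without and none with the replicate number as a block, beside 0.00904% of all genes without it. Under an unadjusted p of 0.05 were 0 members without the block, beside 2.91% of all genes, and 1 with it, beside 5.85%. This was Pdp1, at 21.3, 20.1, 14.6, 12.2 and 13.4 FPKM with AAV-CON (numbers 1, 3, 4, 7 and 8) and 18.8, 17.7, 12.6, 11.7 and 12.6 with AAV-MLXIPL. It was lower in all 5 pairs of the same number (-0.14, SE 0.04, adjusted p = 0.847 with the block). Fold changes lay between -0.16 (Idh2) and 0.07 (Pcx), with a median SE of 0.06. Cs was at 269, 267, 243, 266 and 250.2 FPKM with AAV-CON and 248.8, 254, 257, 259 and 247 with AAV-MLXIPL (-0.03). Mpc1 was at 242, 284, 242, 259 and 234 and 223, 264, 238, 243 and 244 (-0.06), and Got1 at 77.6, 86.9, 51.8, 103 and 84.8 and 64.6, 67.5, 72.3, 105 and 86.0 (-0.02). All 3 genes overlapped between the groups. Pdk4 was at 42.3, 36.7, 63.1, 54.4 and 163 with AAV-CON and 33.1, 33.6, 69.4, 53.2 and 144 with AAV-MLXIPL, high in number 8 of both groups (-0.11, SE 0.44 without and 0.06 with the block).

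In C2C12 cells 4 of 31 members were called higher on overexpression (12.9%) and 4 lower (12.9%), against 16.3% and 14.1% of all genes, so the share of members called lay near the background. After rescaling 3 were higher and 5 lower, against 15.5% and 15.3%. The kinase Pdk1 was at 39.3, 41.6, 37.8 and 39.0 FPKM with the vector and 32.4, 32.2, 31.3 and 32.6 on overexpression, and fell by 0.29 (SE 0.03, adjusted p = 7.72e-05). Idh1, the cytosolic NADP-dependent enzyme, was at 121, 116, 115 and 118 and 97.7, 102, 97.4 and 98.5, and fell by 0.25 (SE 0.03, adjusted p = 5.8e-05). Aco1, which makes isocitrate in the cytosol, was at 16.9, 17.6, 15.1 and 16.4 and 13.9, 13.4, 14.02 and 13.7, and fell by 0.25 (SE 0.04, adjusted p = 0.00176). None of these 3 genes overlapped between the groups, and Pdk2 also fell (-0.16, adjusted p = 0.0138).

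The 4 members that rose were Pdhx, Got1, Idh3a and Pdk3. Pdhx was at 9.47, 10.4, 9.31 and 9.80 FPKM with the vector and 10.6, 11.96, 11.3 and 11.1 on overexpression, each in the order of libraries 1 to 4 (0.19, SE 0.05, adjusted p = 0.0112). Got1 was at 28.5, 28.8, 29.2 and 28.7 and 33.9, 33.6, 31.7 and 31.9 (0.18, SE 0.03, adjusted p = 0.00134), and Idh3a at 23.2, 24.3, 22.1 and 24.4 and 27.1, 25.0, 24.7 and 27.0 (0.14, SE 0.04, adjusted p = 0.0316). None of these 3 overlapped between the groups. The Idh3a call ended without vector 1 or 3 or overexpression 1 or 4 (adjusted p 0.0675 to 0.0882), and the Pdk3 call (0.12, SE 0.04, adjusted p = 0.0457) without vector 1, 2, 3 or 4 or overexpression 2, 3 or 4 (adjusted p 0.0582 to 0.122) and on rescaling. Of the 10 TCA cycle genes only Idh3a was called, and the carrier subunits and Pdk4 were not. Cs was at 139.7, 139, 144 and 140.1 and 140.2, 140.4, 140.3 and 141 (0.00, SE 0.02). Mpc1 was at 63.0, 62.8, 56.98 and 62.0 and 61.2, 57.1, 58.7 and 65.2 (-0.02, SE 0.05), and Pdk4 at 3.37, 3.56, 3.76 and 4.47 and 3.90, 3.98, 4.06 and 3.80 (0.05, SE 0.07).

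Among the kinases of C2C12 vector cells, Pdk1 made up 54.6% ± 0.952 of the summed FPKM (SD, n = 4), Pdk2 23.7% ± 0.885, Pdk3 16.5% ± 0.564 and Pdk4 5.26% ± 0.751, and on overexpression Pdk1 was at 49.9% ± 1.15 and Pdk3 at 20.3% ± 0.939. Idh1 made up 60.9% ± 1.06 of both NADP-dependent isocitrate dehydrogenases in vector cells. Of 31 tested genes of the further list 6 rose and 4 fell, beside 16.3% and 14.1% of all genes. Gpt2, mitochondrial alanine aminotransferase, was at 0.32, Gpd2 at 0.25, the lactate transporter Slc16a1 at -0.42 and Glud1, glutamate dehydrogenase, at -0.19. The respiratory chain list had 18 of 70 genes higher and 0 lower, beside the same shares of all genes, with a median of 0.05 against 0.00 for all genes. The muscle-defining genes moved with overexpression, as given above, and so did the slow-twitch list (393 to 430.1 with the vector and 547 to 585 on overexpression), the satellite cell and myoblast list (122 to 129 and 152 to 163), the fast-twitch list (309.2 to 334 and 405 to 423), the fibroblast list (3403 to 3552 and 3080 to 3283), the Schwann cell list (94.8 to 103 and 76.5 to 80.3) and the red blood cell list (9.89 to 10.6 and 5.51 to 9.50). The adipocyte, endothelial and leukocyte lists overlapped between the groups. Of other cell types, the adipocyte markers Lep and Retn and the globin genes Hba-a2, Hbb-bs and Hbb-bt were at 0 in all 8 libraries. The part of these lists in the changes of the members was not tested.

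**Figure D5:**
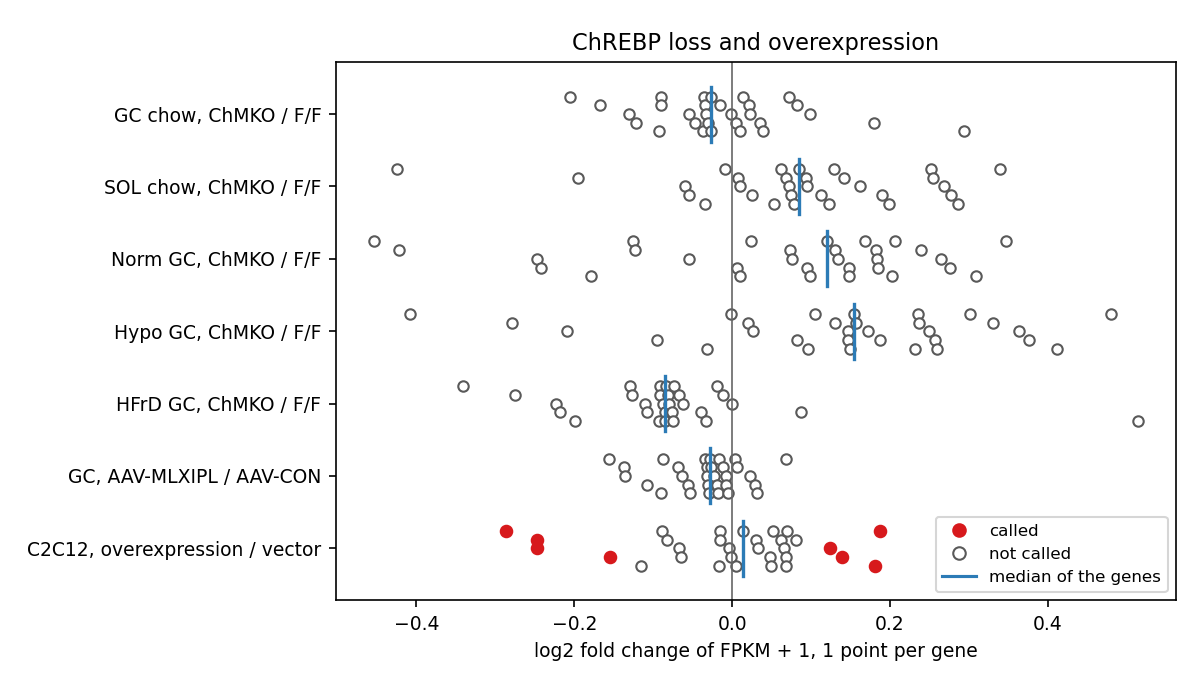
Log2 fold changes (x axis, from FPKM + 1) of the members in 7 comparisons of ChREBP loss or overexpression (y axis), 1 point per gene, red where called, with a line at the median of the genes. Of these comparisons only C2C12 overexpression holds called members, 8 of 31, between -0.29 for Pdk1 and 0.19 for Pdhx.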

How the data were processed

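RNA-seq of mouse muscle and C2C12 cells was deposited as 4 gene tables. Values are FPKM that the authors computed. Their processing notes name fastp 0.18.0, Bowtie2 2.2.8, HISAT2 2.1.0, StringTie 1.3.1, RSEM and GRCm39. Positions in the chow table follow GRCm38 and those in the stress table follow GRCm39. The AAV and C2C12 tables name no unit and were taken as FPKM from their values and these tools, and 20918 of 21039 AAV gene identifiers matched a symbol, with Pcx listed as Pc. The AAV table also holds group means, fold changes and p-values of the authors' comparison, which were not used. Whole reads could be recovered from the deposited FPKM for 100% of values in the stress experiment within 0.1 reads, at 14471541 to 23459142 reads per library. The depth of the other tables is unknown.

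Groups were taken from the labels, and 1 SOL F/F library, mouse 69, carries the number 59 in another label. The labels' treatment text of the stress controls names C57BL/6 while their genotype is ChREBP-flox. No 2 libraries held identical values. Log2(FPKM + 1) was fitted with limma 3.58.1 and statmod 1.5.0 in R 4.3.3 (moderated, trend, two-sided) after removal of genes whose mean over the libraries fitted was under 0.5 FPKM, with Benjamini-Hochberg adjustment over all tested genes, in 13 pairs of groups and 3 interactions. The interaction of genotype and muscle had the mouse as a random block. The scripts were tested on simulated data. Tables and plots were made with Python 3.11.15, numpy 2.4.6, pandas 2.3.3, matplotlib 3.10.9 and the R package data.table (version 1.17.8).

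The members and lists were chosen with earlier results of these data known. Any member could be named. Values per library are given for the 3 highest and 3 lowest fold changes among called members of each comparison and for Pdk4, Mpc1, Cs and Got1 in every experiment. Alternatives were a pseudocount of 0.1, a minimum of 5 or none, rescaling by the median of ratios, summed entries of a symbol, all groups in 1 fit, voom on whole reads, the study's criterion (a log2 fold change of at least 1 in size with an unadjusted p under 0.05), leaving out each library, and the replicate block. The library set as a term, fits within a set and leaving out F/F mice 69 and 71 were chosen after seeing the data. SOL and GC pair by mouse, and deviations of same-numbered libraries correlated at -0.02 to 0.32 in F/F and 0.02 to 0.05 in ChMKO mice. The -0.02 was that of mouse 69, whose GC library correlated better with SOL of another mouse (0.29). Its SOL library carries another number in a label, as given above, so the match of mouse 69 is uncertain. GC of ChMKO mice 60, 61, 72 and 74 also correlated better with SOL of another mouse. Same-numbered AAV libraries correlated at 0.21 to 0.49 and were taken as paired by this check alone. AAV-CON 4 correlated better with another number (0.34 against 0.25). Same-numbered C2C12 libraries correlated at -0.09 to 0.18 and share only a number.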

Additional observations from a re-analysis of the deposited data

Results flagged for a closer look

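In groups of 4 or 5 libraries, a member was listed here where the gap from the highest or lowest library to the nearest other, divided by the range of the group, passed Dixon's 95% critical value. Of 124 combinations of a named member and a group 5 passed, and chance alone passes about 1 in 20. Idh2 was at 131.2 FPKM in GC of F/F mouse 58 on chow, against 38.65 to 57.8 in the other 4. Pcx was at 18.89 FPKM in the Hypo F/F library H_WTc348, against 15.05 to 15.31 in the others, and at 12.13 FPKM in 1 HFrD F/F library (WT_C294), against 15.24 to 15.59. Pdk4 was at 162.5 FPKM in AAV-CON 8, against 36.73 to 63.09 in the others, and the AAV-MLXIPL library of the same number was the highest of its own group at 143.8. Mpc1 was at 56.98 FPKM in C2C12 vector library 3, against 61.98 to 63.01 in the others.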

How the results depend on the processing

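The number of members called in SOL against GC was 21 in F/F and 25 in ChMKO mice. It was 11 in F/F mice on rescaling, 5 in each genotype by the study's criterion, 17 to 25 on leaving out 1 library in F/F (17 without SOL F/F 69, 25 without SOL F/F 71) and 24 to 25 in ChMKO mice. With no filter on low values the F/F calls of Idh3a, Pdk4, Pdp1 and Pdp2 ended. The fit with the mouse as a replicate block called 21 in F/F (18 higher, 3 lower) and 26 in ChMKO mice, and for the difference of the genotype effect between muscles a fit with no replicate block called 0, as did the fit with it. The replicate block left AAV at 0 calls. For C2C12 it gave 8 (3 higher, 5 lower), with Mpc2 in place of Pdk3, but the numbers there pair nothing that the labels name, and not every library correlated best with its own number. C2C12 calls numbered 8, 0 by the study's criterion and 6 to 8 on leaving out 1 library. With no filter on low values the C2C12 calls of Idh3a and Pdk3 ended. Hypo against Norm in ChMKO mice had 0 calls, 1 (Pcx) with all groups in 1 fit and 3 with the library set as a term. HFrD against Norm in F/F mice had 0 calls, 1 (Idh1) with all groups in 1 fit and 1 (Pdk4) within the second library set. HFrD against Norm in ChMKO mice had 24 calls, 23 to 25 on leaving out 1 library, 21 with all groups in 1 fit, 1 (Pdk4) by the study's criterion and 0 with the set as a term. With that term these log2 differences reversed in sign and were no longer called: Aco1 0.0509, Cs 0.0869, Dld -0.0838, Fh1 0.0085, Got1 0.2106, Idh3b 0.0050, Idh3g 0.0274, Mdh1 0.0908, Mdh2 0.0536, Mpc1 -0.1607, Ogdh 0.2316, Pdk2 0.0692 and Sucla2 -0.1288. The diet effect in ChMKO minus F/F mice had 0 calls, and 0 to 7 on leaving out 1 library, 7 without N_WTc369. The cause of these changes was not tested. The other comparisons had 0 calls under every alternative run. A pseudocount of 0.1, a minimum mean FPKM of 5, summed entries of a symbol and voom moved no count by over 1.5 times. In the muscle tables Pdk3 and Pdp2 had low mean FPKM. Whether depth limited what could be seen of them was not tested, and the depth of 3 tables is unknown.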
